A study of Mus musculus with 30 samples.

Results

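The genes described here are 37 mouse genes of fatty acid oxidation and ketogenesis, chosen by name as enzymes of mitochondrial and peroxisomal oxidation and as targets of the nuclear receptor PPAR-alpha. All 37 were found in both count tables, among 24063 genes listed for macrophages and 24453 for hepatocytes. Polyadenylated RNA was sequenced in 30 libraries of 12 groups, with 3 libraries a group for mouse macrophages elicited by thioglycollate, an irritant that recruits them to the peritoneum, and 2 a group for mouse hepatocytes. Each cell type received vehicle (DMSO/EtOH), 10 uM desmosterol, 1 uM DMHCA, 1 uM MePipHCA, 1 uM GW3965 or 1 uM T0901317 for 18 to 20 h. Desmosterol, the last sterol before cholesterol in a branch of its synthesis, is a natural ligand of the liver X receptors (LXR). DMHCA and MePipHCA are synthetic sterol amides made as its mimetics, and GW3965 and T0901317 are synthetic LXR agonists. All groups, vehicle included, had been held for 24 h beforehand in lipid-deficient serum at 10%, and stayed in it. That medium also held mevastatin at 10 uM, which blocks sterol synthesis, and mevalonate at 50 uM. Macrophages were kept in RPMI and hepatocytes in Hepatozyme, and the sample titles of the cell types carry different dates, so cell type, medium and date cannot be told apart. Strain, age and sex of the animals, and whether replicates came from separate animals or cultures, are not given in the sources used here. The p-values therefore measure the spread between these libraries, which may be technical.

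Long fatty acids are activated to coenzyme A esters, carried into mitochondria as carnitine esters, and shortened there by repeated rounds of dehydrogenation, hydration, a further dehydrogenation and thiolysis. Electrons leave the first step through the electron transfer flavoprotein. Very long and branched chains are shortened in peroxisomes. In liver, PPAR-alpha raises many of these enzymes during fasting, and the acetyl-CoA they release is turned into ketone bodies for other tissues. LXR, in contrast, drives the lipogenic factor SREBP-1c and its fatty acid synthesis genes in liver.

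The libraries held 3.86 to 15.69 M (mega) counted reads in macrophages and 6.63 to 18.63 M counted reads in hepatocytes. Macrophage vehicle libraries were deeper (10.55 to 15.69 M) than those with DMHCA (3.86 to 7.69 M) or MePipHCA (4.24 to 6.80 M). Hepatocyte libraries carried all 8 listed hepatocyte markers, at summed levels of 32800 to 40600 CPM (counts scaled to a common library size). In macrophages these 8 summed to 517 to 895 CPM, nearly all of it from Trf, and Ttr, Fgb and Tat were at 0 in every group. The macrophage markers summed to 12800 to 18000 CPM in macrophages and 169 to 303 CPM in hepatocytes. In macrophages that sum covered 7 of the 8 listed markers, without Adgre1, which was not found there. In bulk libraries, fewer cells of a type and less RNA per cell cannot be told apart. Counts were tested with edgeR's quasi-likelihood test, and "called" below means a Benjamini-Hochberg adjusted p under 0.05 over all genes tested, 11544 in macrophages and 13176 in hepatocytes. Of the 37 genes, 27 passed the filter on low counts in macrophages and 36 in hepatocytes. Cpt1b, Acaa1b, Acot1, Acot3, Acot4, Bdh1, Pdk4, Fgf21, Vnn1 and Fabp1 were too low in macrophages, and Acot3 was too low in both.

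Before any ligand effect, vehicle levels were set side by side as RPKM, reads scaled to transcript length and library total, which allows comparison between genes. The tables of the cell types were normalized separately, so these values are a description with no test. Acadl, the long-chain acyl-CoA dehydrogenase, had the highest hepatocyte level, at 83.8 and 78.2 RPKM in the 2 libraries, against 53.3 ± 2.83 RPKM (SD, n = 3) in macrophages. Acadm, the medium-chain enzyme, followed in hepatocytes at 71.1 and 73.9 RPKM, and was at 18.0 ± 1.15 RPKM (SD, n = 3) in macrophages. The hepatocyte libraries stood above all macrophage libraries for 28 of 37 genes, below them for 4 and overlapped them for 5. Over all 23703 shared genes the hepatocyte libraries stood above for 31.8% and below for 21.8%. Among genes tested in both cell types they stood above for 20 of 27 members and below for 4, against 52.3% and 33.4% of all genes. Etfb, Hadhb, Bdh1 and Ppargc1a, 4 of the 37, were counted on different transcripts in the 2 tables. The 4 lower in hepatocytes were Ech1 and Hadha of the mitochondrial pathway, Cpt1a, the carnitine transferase at the entry step, and Crat, which exchanges short acyl groups with carnitine. Ech1, an isomerase for unsaturated chains, was the highest member in macrophages at 60.3 ± 3.13 RPKM (SD, n = 3), and read 25.1 and 27.4 RPKM in hepatocytes. Both cell types thus carried the core pathway, and among the 27 genes tested in both the median ratio of hepatocytes to macrophages was 1.55. The same ratio over all genes was not computed, so 1.55 is not a measure particular to these genes.

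**Figure D1:**
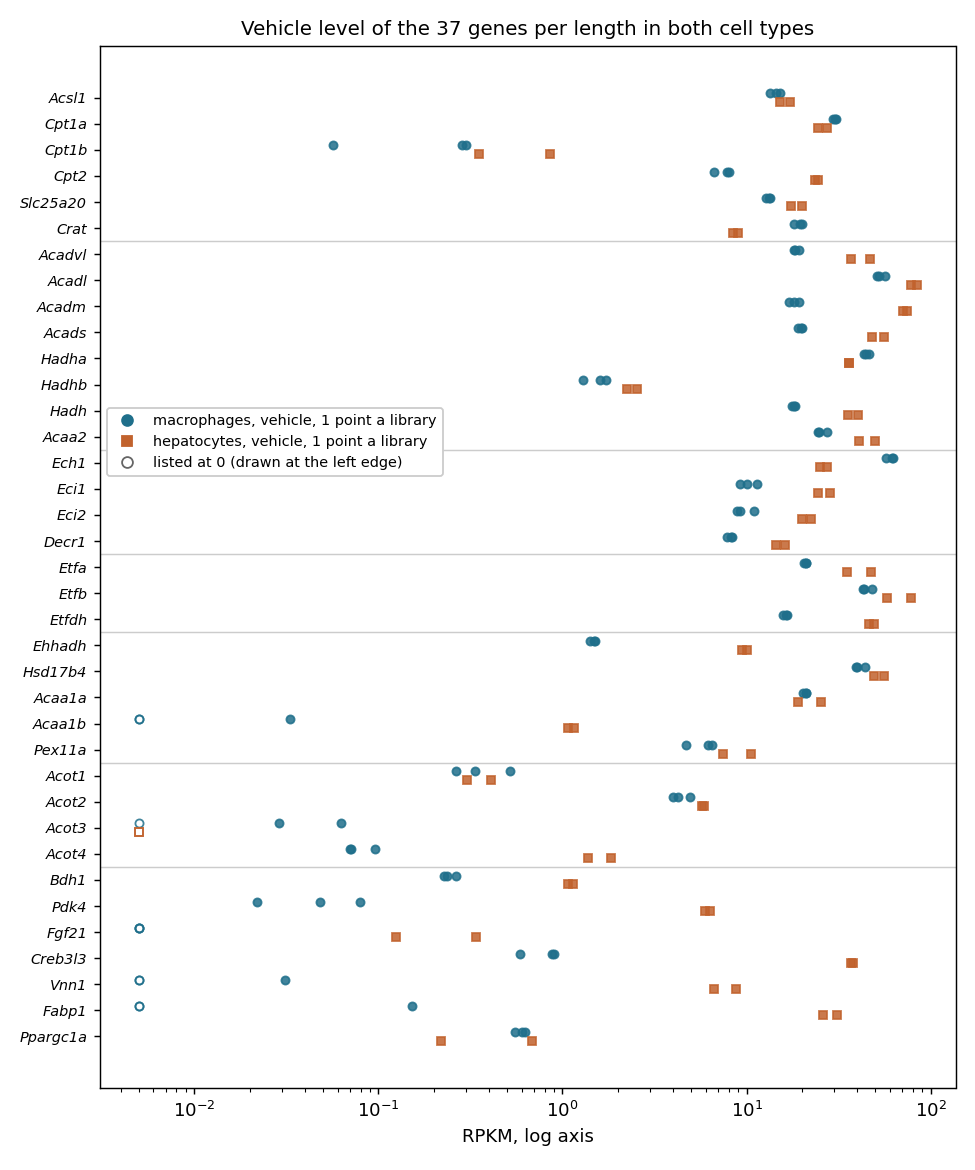
Vehicle level of each of the 37 genes in RPKM on a log axis, 1 point a library, with macrophages as circles (n = 3) and hepatocytes as squares (n = 2); open symbols at the left edge are values listed at 0. Among the cycle enzymes Acadl lies at 53.3 and 81.0 RPKM and Acadm at 18.0 and 72.5 RPKM, and Pdk4, Vnn1, Fabp1 and Creb3l3 lie further apart.

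Of the genes known from the fasting liver, Ppargc1a overlapped between the cell types, Bdh1 was 4.57-fold higher in hepatocytes, and the others differed more. The peroxisomal thiolase Acaa1b was also far apart, at 101-fold. Creb3l3, a membrane-bound transcription factor of the fasted liver, was at 37.7 and 36.7 RPKM in hepatocytes and 0.791 ± 0.175 (SD, n = 3) in macrophages. Pdk4, the kinase that shuts off pyruvate dehydrogenase when fat is burned, was at 5.92 and 6.36 RPKM in hepatocytes and 0.0497 ± 0.0285 (SD, n = 3) in macrophages. Vnn1, a pantetheinase and PPAR-alpha target, was at 6.62 and 8.80 RPKM in hepatocytes and had 4 counts over all 18 macrophage libraries. Fabp1, the liver fatty acid binding protein, was at 30.9 and 26.1 RPKM in hepatocytes and had 3 counts over the macrophage libraries. Fgf21, a hormone secreted by the liver in fasting and stress, was low in vehicle hepatocytes (0.337 and 0.125 RPKM). It had 0 counts in all 18 macrophage libraries, which with 144.5 M counts in all allows a level of up to 0.021 CPM, a limit that covers counting error only. Hadhb, the thiolase subunit of the trifunctional protein, read only 39 to 87 counts a hepatocyte library where its partner Hadha read 1174 to 3268. Of 50-base windows in the Hadhb transcript, 62.4% also occurred in other transcripts of the annotation, mostly processed pseudogenes, so its counts are uncertain.

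Across the 5 ligands in macrophages, 9 of 135 tests of a member against vehicle were called (6.67%), against 16.5% of the tests over all genes. They lay in 5 genes: Etfa with 3 ligands, Acadvl and Cpt1a with 2 each, and Hadha and Ech1 with 1 each. The other 22 tested members were called with no ligand. All called changes were under 1.5-fold. Libraries did not overlap vehicle for 8, 7, 11, 8 and 8 of 27 members with desmosterol, DMHCA, MePipHCA, GW3965 and T0901317. Over all genes the shares were 25.1%, 27.5%, 48.1%, 28.4% and 26.2%. In the same libraries the LXR target Abca1, a cholesterol exporter, rose with every ligand, by 2.99 to 4.33 on the log2 scale.

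**Figure D2:**
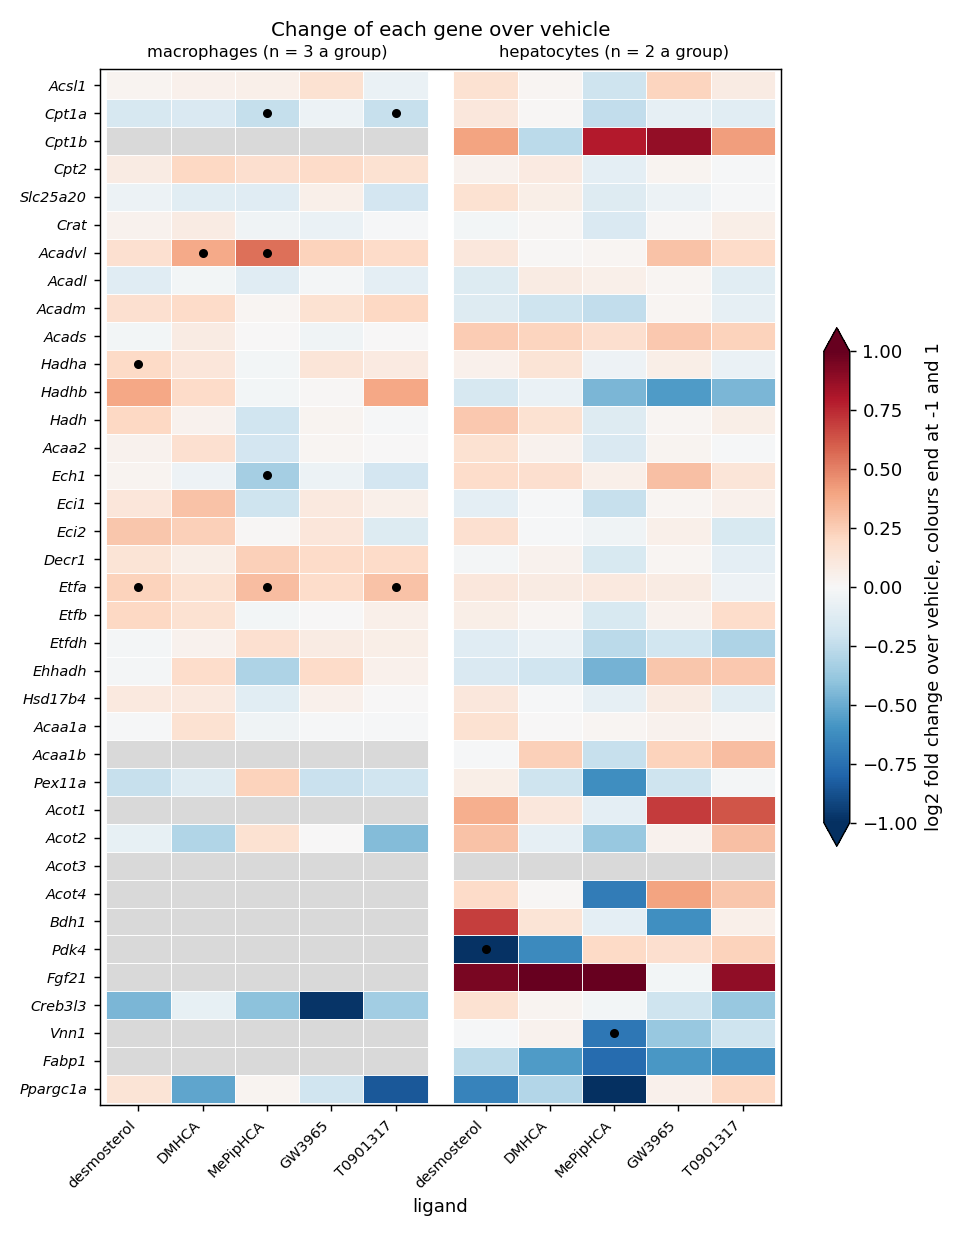
Log2 fold change over vehicle of the 37 genes (rows, grouped by role) for 5 ligands in macrophages (n = 3 a group) and hepatocytes (n = 2 a group), with colours ending at -1 and 1; black dots mark genes past an adjusted p of 0.05 and grey fields were not tested. The 9 calls in macrophages lie in 5 rows, and the 2 in hepatocytes are Pdk4 with desmosterol and Vnn1 with MePipHCA.

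With desmosterol, 2 of 27 members rose (7.41%) and 0 fell in macrophages, against 4.93% of all tested genes rising and 4.57% falling. Hadha, the subunit of the trifunctional protein that hydrates and oxidises long chains, rose by 0.20 ± 0.05 (log2 fold change ± SE, edgeR adjusted p = 0.0056). It read 225, 221 and 223 CPM with desmosterol and 198, 192 and 193 CPM with vehicle, with no overlap. Etfa, the alpha subunit of the electron transfer flavoprotein, rose by 0.23 ± 0.08 (edgeR adjusted p = 0.048). That call stood close to the threshold and was lost in 9 of 11 alternative analyses, where the adjusted p reached 0.148. The median of the members was 0.04, and 23 of the 27 had a 95% interval inside 1.5-fold in either direction, against 76.8% of all genes.

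With DMHCA, 1 of 27 members rose and 0 fell in macrophages, against 5.8% and 5.9% of all genes. The gene was Acadvl, the very-long-chain acyl-CoA dehydrogenase that opens the mitochondrial cycle. Its libraries read 56.8, 56.4 and 64.0 CPM with DMHCA and 47.0, 45.9 and 44.2 CPM with vehicle, so the groups were apart. Acadvl rose by 0.38 ± 0.08 (edgeR adjusted p = 0.000699) and was called in all 11 alternatives. The summed stellate cell and fibroblast markers were at 78.8 to 108 CPM with DMHCA and 141 to 173 CPM with vehicle. Mesothelial markers were also lower, at 12.4 to 13.4 CPM against 15.1 to 22.1. Endothelial markers (29 to 34.1 against 26.9 to 28.2) and granulocyte markers (18.3 to 19.6 against 15.6 to 18.2) were higher. So was the hepatocyte list, at 762 to 895 CPM against 691 to 734. The other sums overlapped vehicle. The part of these shifts in the change of Acadvl was not tested. The member median was 0.08, and 21 of 27 intervals lay inside 1.5-fold, against 71.4% over all genes.

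MePipHCA gave the most calls among the members in macrophages, with 2 up and 2 down, or 7.41% each way. Over all genes tested 17.2% rose and 18.3% fell, so the members' shares were below those of all genes in both directions. Acadvl read 65.2, 66.7 and 68.2 CPM and rose by 0.55 ± 0.08 (1.46-fold, edgeR adjusted p = 3.76e-07). Etfa read 43.5, 42.7 and 41.7 CPM, against 34.4, 34.2 and 34.6 CPM with vehicle, and rose by 0.31 ± 0.09 (edgeR adjusted p = 0.00402). Both genes were above vehicle in all 3 libraries. Ech1 read 58.7, 60.1 and 63.9 CPM, against 78.2, 81.5 and 72.7 CPM with vehicle, and fell by 0.34 on the log2 scale (SE 0.09, edgeR adjusted p = 0.00137). Cpt1a, the enzyme that malonyl-CoA inhibits, read 130, 113 and 127 CPM with MePipHCA and 146, 146 and 148 CPM with vehicle. It fell by 0.24 on the log2 scale (SE 0.07, edgeR adjusted p = 0.00368). These 4 calls held in all 11 alternatives. All 7 stellate cell and fibroblast markers were listed, and their summed level was 42.2 to 53.3 CPM with MePipHCA, with Lrat at 0, against 141 to 173 CPM with vehicle. The macrophage marker sum was 12800 to 13000 CPM against 16200 to 16300. That sum was also below vehicle with GW3965 (15000 to 16000) and T0901317 (14500 to 15200), and overlapped it with desmosterol and DMHCA. With MePipHCA mesothelial markers were at 4.76 to 6.01 CPM against 15.1 to 22.1, and cholangiocyte markers at 3.54 to 4.33 against 10.2 to 11.2. The hepatocyte list, nearly all Trf, was at 517 to 520 CPM against 691 to 734. Endothelial, granulocyte and lymphocyte sums overlapped vehicle. The part of these shifts in the changes of the members was not tested.

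GW3965 called 0 of 27 members in either direction in macrophages by edgeR, where 6.54% of all genes rose and 6.69% fell. At an unadjusted p under 0.05 there were 4 of 27 members and 2667 of 11544 genes. DESeq2 also called 0, while an edgeR fit of the compared groups alone called 1, Acadvl at 0.23 (adjusted p = 0.0473). Its libraries read 57.9, 55.2 and 48.6 CPM, all above vehicle. Creb3l3 had the largest change, at -0.98 ± 0.41 with an edgeR adjusted p of 0.117, from levels of 1.30, 1.31 and 0.673 CPM against 2.31, 2.31 and 1.52 CPM with vehicle.

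T0901317 called 1 of 27 members up and 1 down in macrophages, where 6.29% of all genes rose and 6.55% fell. Etfa read 46.6, 40.6 and 40.4 CPM and rose by 0.29 ± 0.08 (edgeR adjusted p = 0.0129). Cpt1a read 116, 131 and 126 CPM and fell by 0.23 on the log2 scale (SE 0.07, edgeR adjusted p = 0.0142). Both groups were apart from vehicle, and both calls were lost without T0901317 replicate 1, at adjusted p = 0.102 for Etfa and 0.106 for Cpt1a.

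Cpt1a was not called with the other 3 ligands. With desmosterol it read 119, 145 and 126 CPM, with DMHCA 135, 131 and 131 CPM, and with GW3965 138, 152 and 132 CPM. The first 2 of these groups lay below vehicle without being called, at -0.17 ± 0.06 (edgeR adjusted p = 0.0816) and -0.15 ± 0.07 (adjusted p = 0.163), and GW3965 overlapped vehicle. Without desmosterol replicate 2 the desmosterol value was -0.26 and was called (adjusted p = 0.00305). Acadvl was highest in all 3 MePipHCA libraries. With desmosterol it read 52.2, 53.9 and 46.8 CPM and with T0901317 49.3, 56.6 and 51.1 CPM, and neither was called (edgeR adjusted p = 0.199 and 0.135). The end of Acadvl overlaps that of Dvl2, a Wnt signalling gene on the opposite strand, and 24% of its 50-base windows occur in Dvl2 transcripts. No strand setting is stated for the counting, so some reads of the pair cannot be told apart. Dvl2 fell by 0.38 on the log2 scale with MePipHCA (SE 0.11, edgeR adjusted p = 0.00565). Its other values were not called: -0.26 with desmosterol, -0.25 with DMHCA, 0.19 with GW3965 and 0.18 with T0901317. The part of Dvl2 reads in the Acadvl values was not tested.

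Other genes were followed in macrophages whatever their change. Acadl read 123, 114 and 115 CPM with vehicle, 113, 102 and 109 with desmosterol, 116, 114 and 114 with DMHCA, 103, 107 and 113 with MePipHCA, 114, 115 and 119 with GW3965, and 115, 98.5 and 113 with T0901317. It was called with no ligand, and its changes ran from -0.12 to -0.02, with the desmosterol and MePipHCA libraries below vehicle. Ehhadh, the bifunctional enzyme of peroxisomal oxidation, read 5.08, 5.12 and 4.81 CPM with vehicle, 4.15, 4.90 and 5.77 with desmosterol, 6.55, 4.37 and 6.28 with DMHCA, 3.25, 3.54 and 4.99 with MePipHCA, 5.40, 5.96 and 5.72 with GW3965, and 4.71, 6.51 and 4.78 with T0901317. None of these 5 contrasts was called, and only GW3965 stood apart from vehicle. Ppargc1a, the coactivator that drives mitochondrial genes, read 4.52, 4.56 and 4.05 CPM with vehicle, 4.83, 5.97 and 3.54 with desmosterol, 1.83, 4.02 and 2.94 with DMHCA, 3.68, 5.42 and 4.40 with MePipHCA, 4.96, 3.49 and 3.37 with GW3965, and 4.46, 2.00 and 1.74 with T0901317. Its T0901317 value was -0.85 ± 0.30 (edgeR adjusted p = 0.052), with 1 library inside the vehicle range. It was called with no filter (-0.86, adjusted p = 0.0301) and without T0901317 replicate 1 (-1.26, adjusted p = 0.00594). Bdh1, the mitochondrial enzyme that interconverts the ketone bodies, had 9, 13 and 11 counts with vehicle and 0 to 11 counts in the ligand libraries, too few for a test. Pdk4 had 2, 5 and 1 counts with vehicle and 0 to 3 counts in the ligand libraries, and Vnn1 had 0 or 1 count in every library.

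**Figure D3:**
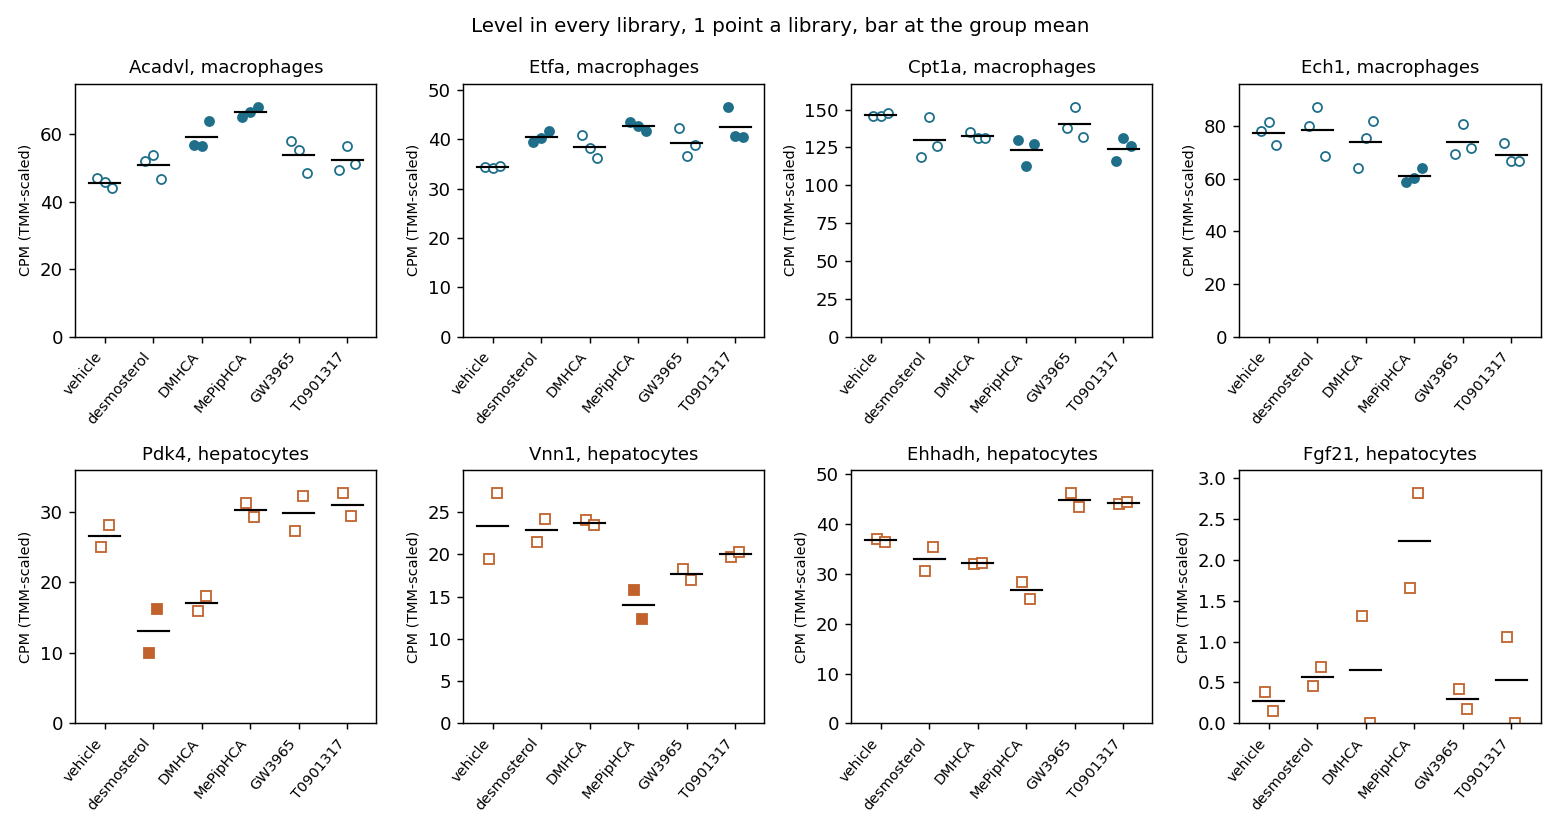
TMM-scaled CPM of 4 genes in macrophages (circles, n = 3) and 4 in hepatocytes (squares, n = 2), 1 point a library and a bar at the group mean, with filled points for groups called against vehicle. Acadvl reaches 65.2 to 68.2 CPM with MePipHCA against 44.2 to 47.0 with vehicle, and Pdk4 is at 9.92 and 16.2 CPM with desmosterol against 25.0 and 28.1 with vehicle.

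In hepatocytes, 2 of 180 tests of a member against vehicle were called (1.11%), against 0.791% of the tests over all genes. The calls were Pdk4 with desmosterol and Vnn1 with MePipHCA, and 34 of 36 tested members were called with no ligand. Libraries did not overlap vehicle for 15, 9, 20, 15 and 14 of 36 members with desmosterol, DMHCA, MePipHCA, GW3965 and T0901317. Over all genes the shares were 39.5%, 30.9%, 43.5%, 38.8% and 42.3%. The precision was lower than in macrophages. The median SE of the members was 0.14 on the log2 scale, against 0.09 to 0.10 in macrophages. Depending on the ligand, 23 to 25 of 36 members had a 95% interval inside 1.5-fold, against 54.8% to 58.9% of all genes.

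Desmosterol called 1 of 36 members down and 0 up in hepatocytes, where 0.205% of all genes rose and 0.159% fell. Pdk4 read 25.0 and 28.1 CPM with vehicle and 9.92 and 16.2 CPM with desmosterol, with no overlap. It was 1.99-fold lower, at -0.99 ± 0.19 (log2 fold change ± SE, edgeR adjusted p = 0.0102). Leaving out vehicle replicate 2 or desmosterol replicate 1 ended the call (adjusted p = 0.124 and 0.255), with values from -1.41 to -0.70 over the alternatives. The member median was 0.11, and Bdh1 stood above vehicle without being called, at 8.38 and 5.49 CPM against 4.04 and 4.53 CPM (0.69 ± 0.40, edgeR adjusted p = 0.679).

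DMHCA called 0 of 36 members in hepatocytes by edgeR, and 0% of all genes rose and 0% fell. At an unadjusted p under 0.05 there were 3 members and 615 of all genes, and DESeq2 also called 0 members. Pdk4 read 16.0 and 18.0 CPM, both below vehicle, at -0.64 ± 0.19 with an unadjusted p of 0.00192 and an edgeR adjusted p of 0.903. The desmosterol and DMHCA values share the vehicle libraries.

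MePipHCA called 1 member down and 0 up in hepatocytes, where 0.789% of all genes rose and 1.38% fell. Vnn1 read 15.8 and 12.3 CPM with MePipHCA and 19.5 and 27.2 CPM with vehicle, and fell by 0.72 on the log2 scale (1.65-fold, SE 0.19, edgeR adjusted p = 0.0342). The call ended without vehicle replicate 2 (adjusted p = 0.442) and without either MePipHCA replicate (0.0526 and 0.468). In all, 8 of 36 members and 1558 of 13176 genes had an unadjusted p under 0.05. Of the 36 values 27 were negative, with a median of -0.14 against 0 over all genes. Ehhadh read 28.4 and 25.0 CPM against 37 and 36.4 CPM, at -0.47 ± 0.14 (edgeR adjusted p = 0.0786). Fgf21 ran the other way, with 20 and 53 counts in the MePipHCA libraries against 5 and 1 with vehicle, or 1.65 and 2.81 CPM against 0.389 and 0.151 CPM. Its value was 2.90 ± 1.30 with a 95% interval from 0.23 to 5.56 and an edgeR adjusted p of 0.363, and a fit of the compared groups alone called it (adjusted p = 0.0276). A list of 15 genes held those of the ATF4 and stress response, to which Fgf21 is known to respond, and the Fgf21 receptor genes Fgfr1 and Klb. Of the 15, 5 rose in the same libraries and 0 fell. Among the 5 were Ddit3 (0.92 ± 0.19), Trib3 (0.78 ± 0.13) and Phgdh (0.74 ± 0.17). Fgf21 was not called in the fit of all 6 groups, and a link to these genes was not tested.

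GW3965 and T0901317 called 0 of 36 members in hepatocytes by edgeR. Over all genes 0.364% rose and 0.114% fell with GW3965, and 0.486% rose and 0.455% fell with T0901317. Unadjusted p-values were under 0.05 for 6 and 4 of the 36 members, and for 1115 and 1655 of 13176 genes. DESeq2 called 0 and 2 members. The 2 were Creb3l3 (-0.38, adjusted p = 0.0285) and Etfdh (-0.32, adjusted p = 0.0402), both lower with T0901317. Creb3l3 read 79.0 and 84.0 CPM against 105 and 107 CPM with vehicle. Etfdh, the dehydrogenase that passes electrons from the flavoprotein to ubiquinone, read 111 and 107 CPM against 137 and 134 CPM. In edgeR these stood at adjusted p = 0.0727 and 0.117. The LXR and SREBP-1c targets did respond in these libraries: 6 of 14 rose with each agonist, led by Abcg1 (4.10 ± 0.69 and 4.44 ± 0.68) and Scd1 (2.30 ± 0.08 and 2.42 ± 0.08).

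The remaining hepatocyte values of the genes followed throughout were as follows. Cpt1a read 143 and 134 CPM with vehicle, 152 and 148 with desmosterol, 139 and 141 with DMHCA, 113 and 120 with MePipHCA, 127 and 135 with GW3965, and 129 and 128 with T0901317. Its lowest group was MePipHCA, at -0.25 ± 0.09 with an edgeR adjusted p of 0.187. Acadl read 199 and 194 CPM with vehicle, 183 and 175 with desmosterol, 198 and 219 with DMHCA, 198 and 212 with MePipHCA, 205 and 195 with GW3965, and 188 and 176 with T0901317. All 5 of its changes lay between -0.14 and 0.08. Pdk4 read 31.3 and 29.3 CPM with MePipHCA, 27.3 and 32.3 with GW3965, and 32.6 and 29.4 with T0901317. Only its desmosterol and DMHCA libraries lay below vehicle, and of these only desmosterol was called. Vnn1 read 21.5 and 24.2 CPM with desmosterol, 24 and 23.5 with DMHCA, 18.3 and 17.0 with GW3965, and 19.7 and 20.3 with T0901317. Apart from MePipHCA, only GW3965 lay wholly below vehicle (-0.38 ± 0.18, edgeR adjusted p = 0.582).

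Ehhadh read 30.6 and 35.3 CPM with desmosterol, 32.0 and 32.1 with DMHCA, 46.1 and 43.3 with GW3965, and 44.0 and 44.4 with T0901317. The 2 synthetic agonists stood above vehicle (0.28 ± 0.13 and 0.27 ± 0.14) and the 3 sterols below it, and none was called. Bdh1 read 5.76 and 3.68 CPM with DMHCA, 3.47 and 4.45 with MePipHCA, 2.86 and 2.72 with GW3965, and 2.74 and 6.30 with T0901317. Its SE was 0.40 to 0.42, and no group was called. Ppargc1a read 1.71 and 5.59 CPM with vehicle, 1.53 and 2.75 with desmosterol, 3.94 and 1.77 with DMHCA, 2.32 and 1.22 with MePipHCA, 2.79 and 4.36 with GW3965, and 1.69 and 6.48 with T0901317. Every ligand group overlapped vehicle, whose own libraries lay far apart. Fgf21 had 5 and 11 counts with desmosterol, 18 and 0 with DMHCA, 6 and 3 with GW3965, and 15 and 0 with T0901317. With DMHCA and T0901317 1 replicate lay above both vehicle libraries and the other at 0.

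The other members are given by role. The entry genes Acsl1 (acyl-CoA synthetase), Cpt2, Slc25a20 (carnitine carrier) and Crat were called with no ligand in either cell type. Cpt1b, the muscle form of the entry enzyme, ran from -0.27 to 0.88 in hepatocytes with an SE of 0.62 to 0.65. Of the cycle enzymes, Acadm, Acads, Hadh, Hadhb and Acaa2 were called with no ligand against vehicle. Of the isomerases and reductase for unsaturated chains, Eci1, Eci2 and Decr1 were not called either, and of the electron transfer genes Etfb and Etfdh were not. The peroxisomal genes Hsd17b4, Acaa1a, Acaa1b and Pex11a, a peroxisome division factor, were called with no ligand. Pex11a was the lowest of them with MePipHCA in hepatocytes, at -0.62 ± 0.27 (edgeR adjusted p = 0.345). Acot2, a mitochondrial thioesterase, was -0.43 ± 0.16 with T0901317 in macrophages (edgeR adjusted p = 0.0844). Acot1, its cytosolic counterpart, had an SE of 1.05 to 1.09 in hepatocytes. Acot4, a peroxisomal thioesterase, ran from -0.70 to 0.40 there. Fabp1 was below vehicle with all 5 ligands, from -0.77 to -0.26, and none of the 5 was called. With MePipHCA it was called with no filter (adjusted p = 0.0386) and with the compared groups alone (adjusted p = 0.0301).

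DMHCA and MePipHCA were given at the same dose for the same time, so they could be compared directly, as 1 pair in each of the 2 cell types. They are amides of the same cholenic acid sterol and differ in the amide group, dimethyl in DMHCA and methylpiperidinyl in MePipHCA. In macrophages 0 of 27 members were higher and 4 (14.8%) lower with MePipHCA than with DMHCA, against 10.7% and 12.1% of all genes. The member median was -0.12. Acaa2, the thiolase that closes the cycle, read 40.7, 39.9 and 34.9 CPM with MePipHCA and 43.7, 52.0 and 49.0 CPM with DMHCA, a difference of -0.35 ± 0.11 (edgeR adjusted p = 0.0127). Ech1 read 64.2, 75.3 and 82.0 CPM with DMHCA and differed by -0.29 ± 0.09 (edgeR adjusted p = 0.0171). Hsd17b4, the main peroxisomal multifunctional enzyme, read 116, 114 and 116 CPM against 129, 130 and 139 CPM, at -0.20 ± 0.06 (edgeR adjusted p = 0.0111). Hadha read 190, 185 and 196 CPM against 197, 212 and 224 CPM, at -0.15 ± 0.05 (edgeR adjusted p = 0.0359). All 4 pairs of groups were apart, as were those of 14 of 27 members and 36.6% of all genes. The calls were lost without a single library in 2 of the alternatives for Acaa2, 4 for Ech1, 1 for Hsd17b4 and 5 for Hadha, each time with a DMHCA or MePipHCA library left out, and without DMHCA replicate 3 only Acaa2 of the 4 stayed. Hadha was also lost with no filter (adjusted p = 0.0642). Eci1, an enoyl-CoA isomerase, had the most negative value, -0.50, and was called in 4 alternatives, among them no filter (adjusted p = 0.0256) and the compared groups alone (adjusted p = 0.0163). Acadvl, called against vehicle with both, did not pass between them, at 0.17 ± 0.08 (95% interval 0 to 0.34).

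**Figure D4:**
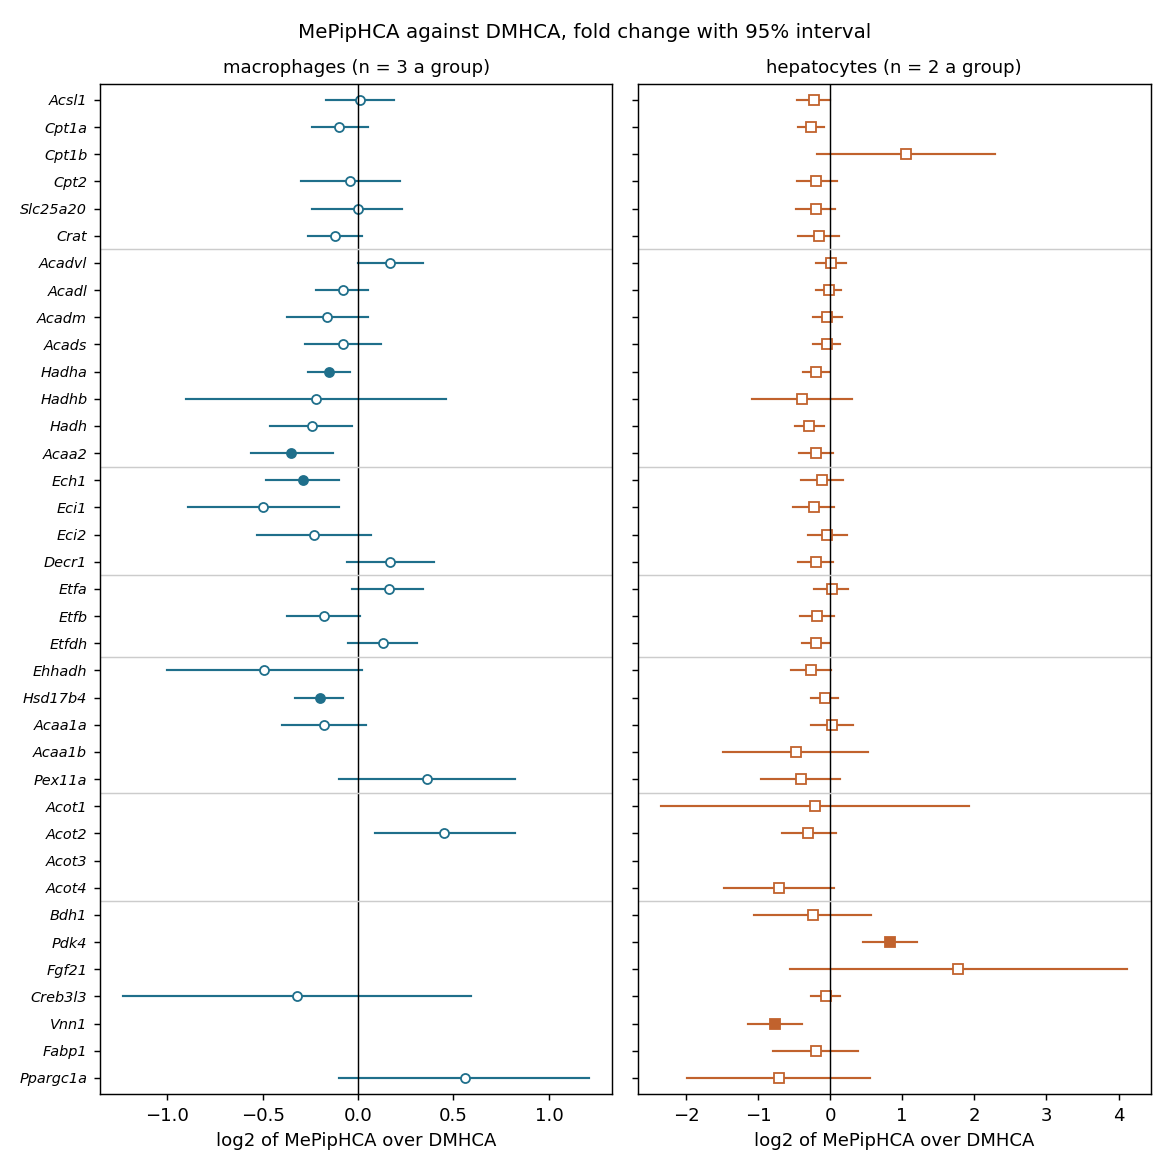
Log2 ratio of MePipHCA to DMHCA for each tested gene with its 95% interval, in macrophages (n = 3 a group) and hepatocytes (n = 2 a group, wider axis), with filled points for adjusted p under 0.05. In macrophages the 4 filled points lie between -0.35 and -0.15, and in hepatocytes Pdk4 lies at 0.83 and Vnn1 at -0.76.

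In hepatocytes 1 of 36 members was higher and 1 lower with MePipHCA than with DMHCA, against 1.29% and 2.01% of all genes. Of the 36 values, called or not, 30 were negative and 6 positive, with a median of -0.2 against 0 over all genes. Pdk4 was at 31.3 and 29.3 CPM with MePipHCA and 16.0 and 18.0 CPM with DMHCA, a difference of 0.83 ± 0.18 (1.78-fold, edgeR adjusted p = 0.00542). Vnn1 was at 15.8 and 12.3 CPM against 24 and 23.5 CPM, a difference of -0.76 ± 0.18 (edgeR adjusted p = 0.014). Pdk4 and Vnn1 thus lay in opposite directions between the amides, with no overlap of libraries in either. Libraries were likewise apart for 20 of 36 members and 45.4% of all genes. The Pdk4 call was lost without DMHCA replicate 1 (adjusted p = 0.0866) or MePipHCA replicate 1 (0.0733), and the Vnn1 call without DMHCA replicate 1 (0.0839) or MePipHCA replicate 2 (0.26). For Cpt1a the difference was -0.26 with an interval from -0.45 to -0.08 (edgeR adjusted p = 0.107), and for Acadl it was -0.02 with an interval from -0.20 to 0.15.

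The cell types were compared for the size of each ligand effect by an interaction term in 1 edgeR fit of all 30 libraries and 13700 genes. Only the 27 members measured in both cell types can be read in it. Positive values mean a change more upward in macrophages. Of the 27, 0 were called for desmosterol (1.44% of all genes up and 1.09% down), 0 for DMHCA (1.42% and 1.34%) and 0 for GW3965 (1.58% and 1.53%). For these 3 ligands 4, 2 and 4 members had an unadjusted p under 0.05, beside 1765, 1949 and 1845 of the 13700 genes. For MePipHCA 2 were called up and 0 down, against 5.04% and 4.62% of all genes. Acadvl, up by 0.55 in macrophages, read 117 and 115 CPM in hepatocytes with MePipHCA against 124 and 103 CPM with vehicle, and the changes differed by 0.54 ± 0.13 (edgeR adjusted p = 0.00274). Leaving out hepatocyte vehicle replicate 1 ended that call (adjusted p = 0.10). Etfdh read 43.7, 50.7 and 46.9 CPM in MePipHCA macrophages against 40.4, 42.6 and 42.9 CPM with vehicle. In hepatocytes it read 112 and 113 CPM against 137 and 134 CPM, and the changes differed by 0.45 ± 0.12 (edgeR adjusted p = 0.00697), in all 15 alternatives. For T0901317 1 was called up and 0 down, against 2.28% and 1.35% of all genes. It was again Etfdh, at 0.40 ± 0.12 (edgeR adjusted p = 0.0409), a call that held in only 2 of 15 alternatives.

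**Figure D5:**
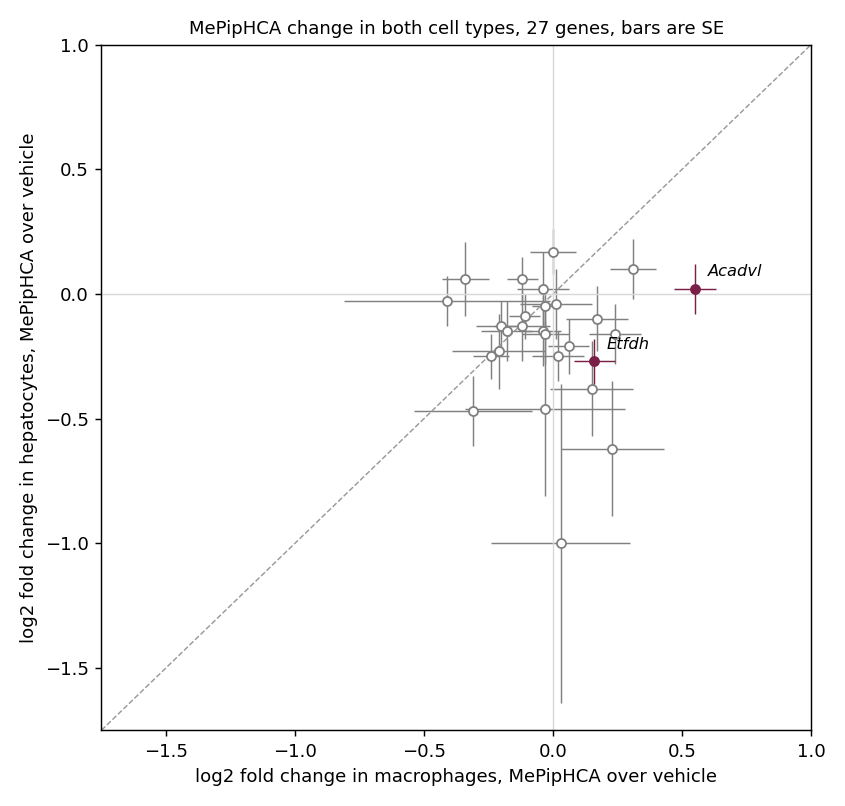
Log2 fold change with MePipHCA over vehicle in macrophages (horizontal, n = 3 a group) and hepatocytes (vertical, n = 2 a group) for the 27 genes tested in both, with SE bars and a dashed line of equal change. Filled points differ between cell types by the interaction test: Acadvl (0.55 and 0.02) and Etfdh (0.16 and -0.27).

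Promoter sequences are shown for the genes the results turn on, as the 250 bases before the annotated start in RefSeq (GRCm38.p6, strand of the gene, 5′ to 3′). PPAR with its partner RXR binds direct repeats of AGGTCA spaced by 1 base (DR1), and LXR with RXR binds repeats spaced by 4 bases (DR4). Both strands were searched for either, with at most 2 mismatches in all, over 300 bases a promoter. Acadvl, Etfa and Cpt1a are shown because each was called with 2 or more ligands in macrophages, and Pdk4 because it was the largest call against vehicle in hepatocytes. Capitals mark a match. They lie at chr11:70015429-70015678 on the minus strand (Acadvl), chr9:55512244-55512493 on the minus strand (Etfa), chr19:3323051-3323300 on the plus strand (Cpt1a) and chr6:5496279-5496528 on the minus strand (Pdk4).
Acadvl: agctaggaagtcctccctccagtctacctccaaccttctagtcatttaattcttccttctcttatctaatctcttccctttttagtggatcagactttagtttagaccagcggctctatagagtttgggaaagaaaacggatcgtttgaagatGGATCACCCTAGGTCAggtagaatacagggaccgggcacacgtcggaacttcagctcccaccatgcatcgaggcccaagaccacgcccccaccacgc
Etfa: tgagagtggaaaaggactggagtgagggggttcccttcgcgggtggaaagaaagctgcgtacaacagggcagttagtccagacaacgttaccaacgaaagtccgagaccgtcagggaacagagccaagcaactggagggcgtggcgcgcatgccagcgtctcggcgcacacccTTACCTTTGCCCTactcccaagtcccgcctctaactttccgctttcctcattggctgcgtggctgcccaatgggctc
Cpt1a: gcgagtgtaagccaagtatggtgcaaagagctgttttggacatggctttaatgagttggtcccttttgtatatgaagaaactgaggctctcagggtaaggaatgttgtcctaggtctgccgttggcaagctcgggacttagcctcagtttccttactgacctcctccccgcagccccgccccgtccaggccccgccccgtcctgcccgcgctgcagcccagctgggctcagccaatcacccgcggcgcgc
Pdk4: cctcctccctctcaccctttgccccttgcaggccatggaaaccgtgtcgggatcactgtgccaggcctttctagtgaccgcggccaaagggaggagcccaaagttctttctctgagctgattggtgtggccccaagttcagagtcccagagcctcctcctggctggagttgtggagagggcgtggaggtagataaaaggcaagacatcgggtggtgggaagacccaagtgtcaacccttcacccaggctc
The capitals in Acadvl are a DR4 match that begins 97 bases before the start, and those in Etfa a DR1 match on the opposite strand that begins 77 bases before it, each with 2 mismatches. No match lay in the Cpt1a or Pdk4 window, which says only that these letters are not in it. Promoters were found for 31 of the 37 genes. A DR1 match lay in 4 of them (12.9%), namely Slc25a20, Etfa, Acot4 and Fabp1, against 3.86% of 32851 promoters in the table. A DR4 match lay in 1 (3.23%), Acadvl, against 3.02%. A match is a description of the letters and not a binding site.

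The wider pathway was read from lists of related genes, whose counts stand beside these shares of all genes. In macrophages the shares up and down were 17.2% and 18.3% with MePipHCA. They were 6.54% and 6.69% under GW3965, 6.29% and 6.55% under T0901317, 5.8% and 5.9% under DMHCA, and 4.93% and 4.57% under desmosterol. In hepatocytes no ligand called more than 0.789% up or 1.38% down. Of 10 other genes of ketone body synthesis and use, 8 were tested in macrophages. There Aacs, which returns acetoacetate to lipid synthesis, fell with desmosterol (-1.21 ± 0.08), DMHCA (-1.43 ± 0.09) and MePipHCA (-1.57 ± 0.10). The counts up and down were 4 and 1 with desmosterol, 0 and 1 with DMHCA, 2 and 3 with MePipHCA, 0 and 0 with GW3965, and 1 and 1 with T0901317. In hepatocytes all 10 were tested, and 1 rose with 1 ligand, Aacs with T0901317 (0.42 ± 0.10).

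Other mitochondrial oxidation genes, 19 tested in macrophages and 20 in hepatocytes, had 1 to 2 up and 0 to 3 down per ligand in macrophages and a single call in hepatocytes. Echs1, the short-chain hydratase of the same cycle, rose with all 5 ligands in macrophages, by 0.19 to 0.35. Dbi, an acyl-CoA binding protein, fell with desmosterol (-0.34 ± 0.07) and MePipHCA (-0.73 ± 0.08) in macrophages and with MePipHCA in hepatocytes (-0.33 ± 0.09), and rose with GW3965 (0.29 ± 0.07) and T0901317 (0.26 ± 0.07) in macrophages. Of 27 other peroxisomal genes tested in macrophages, 1 to 4 rose and 0 to 6 fell. Abcd2, a peroxisomal importer of very long chains, rose with all 5 ligands, by 0.44 to 0.91. Of 32 tested in hepatocytes, 0 were called with any ligand against vehicle.

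Of 16 uptake, activation and malonyl-CoA genes tested in macrophages, 4 rose and 2 fell with each of GW3965 and T0901317. Acsl3, an acyl-CoA synthetase of lipid droplets, rose by 2.08 ± 0.09 and 2.00 ± 0.09, and Acaca, which makes the malonyl-CoA that inhibits Cpt1a, by 1.27 ± 0.10 and 1.17 ± 0.10. The counts up and down were 1 and 3 with desmosterol, where Acsl3 fell (-0.63 ± 0.11), 3 and 1 with DMHCA, and 6 and 4 with MePipHCA. In hepatocytes 2 of 23 rose with GW3965 and 3 with T0901317, and 0 changed with the 3 sterols. Acsl3 rose there by 0.75 ± 0.14 and 0.58 ± 0.14, and Acsl5, another synthetase, by 0.72 ± 0.08 and 0.58 ± 0.08.

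Other PPAR target genes, 21 tested in macrophages, had 3 up and 5 down with desmosterol, 2 and 5 with DMHCA, 4 and 11 with MePipHCA, 2 and 6 with GW3965, and 1 and 8 with T0901317. Lpl, a lipase that is also an LXR target, rose by 0.85 ± 0.04 with desmosterol, 1.08 ± 0.04 with DMHCA, 0.88 ± 0.04 with MePipHCA, 1.36 ± 0.04 with GW3965 and 1.27 ± 0.04 with T0901317. Angptl4, its secreted inhibitor, fell with desmosterol (-0.95 ± 0.18) and MePipHCA (-1.85 ± 0.24) in macrophages. In hepatocytes Angptl4 rose with desmosterol (0.69 ± 0.11), with Gpd1 (0.48 ± 0.09), while Pdk4 fell. The counts up and down among 36 tested there were 2 and 0 with desmosterol, 0 and 0 with DMHCA, 0 and 2 with MePipHCA, 1 and 0 with GW3965, and 1 and 1 with T0901317.

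Among 20 PPAR factors, partners and co-regulators in hepatocytes, the counts up and down were 1 and 1 with desmosterol, 0 and 0 with DMHCA, 0 and 2 with MePipHCA, and 1 and 0 with each agonist. Lpin1, a phosphatidate phosphatase that also acts as a PPAR-alpha coactivator, fell by 1.08 on the log2 scale with MePipHCA (SE 0.13) and rose with GW3965 (0.56 ± 0.13) and T0901317 (0.54 ± 0.13). Hnf4a, a liver transcription factor, rose with desmosterol (0.37 ± 0.08) and fell by 0.41 with MePipHCA (SE 0.08). In macrophages 16 were tested, and 1 rose with each ligand and 0 to 3 fell. The LXR and SREBP-1c list had 6 to 9 of 11 genes up and 0 to 4 down per ligand in macrophages. In hepatocytes it had 6 of 14 up with each agonist, none called with desmosterol or DMHCA, and 2 down with MePipHCA, Abca1 (-0.78 ± 0.09) and Acly (-0.37 ± 0.08). The stress response list also holds the Fgf21 receptor genes Fgfr1 and Klb. Of 13 genes of that list tested in macrophages 11 rose and 0 fell with MePipHCA, led by Chac1 (4.22 ± 0.33). A link to the changes of Acadvl, Etfa, Cpt1a and Ech1 in these libraries was not tested. The counts of this list were 4 up and 1 down with each of desmosterol and GW3965, 2 and 1 with DMHCA, and 5 and 1 with T0901317. The gene down was Fgfr1 with DMHCA (-0.38 ± 0.10) and GW3965 (-0.55 ± 0.09), and Gdf15 with desmosterol (-0.46 ± 0.08). In hepatocytes, outside MePipHCA, 2 of 15 rose with T0901317 and 0 changed with the other ligands.

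Some members share sequence with a neighbour or copy, and their counts are uncertain for that reason. The share of 50-base windows found in transcripts of another gene was 93% for Cpt1b and 67.3% for Etfb, in each case from 1 overlapping gene model on the same strand (Gm44502 and Gm45233). It was 46.2% for Acaa1b and 35.1% for Acaa1a, mostly each other. It was 33.6% for Acot1, 27.7% for Acot2, 21.7% for Acot3 and 14.4% for Acot4, which lie side by side on chromosome 12.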

How the data were processed

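STAR and HOMER are the tools and mm10 the build named per the submitters' processing notes, without versions. The deposited raw counts are reads over exons of 1 transcript per gene, per the file headers. The deposited RPKM values are the authors' scaling by length and library total, used here for levels between genes. For Eci2 and Ppargc1a in both cell types, and for Hadhb in macrophages, the RPKM values name a different transcript from the counts. No strand option is stated. Genes were kept by filterByExpr, scaled by TMM and fitted with edgeR 4.0.16 (R 4.3.3), the 6 groups of a cell type together, or all 30 libraries joined by symbol for the interaction. P-values were adjusted by Benjamini-Hochberg over all genes. The SE is the log2 fold change over the root of F. The fits were tested on simulated data. DESeq2 1.42.0, RLE factors, no filter, the compared groups alone, a replicate block and leaving out each library were tried.

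The members, the 8 lists and the tests were chosen with earlier results of these data known. Named in full were Cpt1a, Pdk4, Fgf21, Acadl, Ehhadh, Bdh1, Vnn1, Ppargc1a and members called at 0.58 (log2) or more, and of each list up to 3 called genes per comparison with the largest change. Other members with library values, shared windows (GENCODE M21) and named neighbours were added after values were seen.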

Additional observations from a re-analysis of the deposited data

Results flagged for a closer look

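The change of Acadvl with MePipHCA over vehicle differed between macrophages and hepatocytes by 0.54 on the log2 scale in the interaction test, and that of Etfdh by 0.45. With T0901317 the change of Etfdh differed by 0.40 (edgeR adjusted p = 0.0409), a call kept in only 2 of 15 alternatives. Acadvl rose in macrophages and had an interval across 0 in hepatocytes. Etfdh was above vehicle in all macrophage libraries and below it in all hepatocyte libraries with either ligand, and edgeR called it against vehicle in neither cell type, while DESeq2 called it with T0901317 in hepatocytes (-0.32, adjusted p = 0.0402). Cell type, medium and title date cannot be told apart in these differences.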

How the results depend on the processing

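Of 5744 values recomputed for single members under the alternatives, 5673 kept their side of the threshold, 47 lost a call and 24 gained one. At 2 decimals 300 values changed sign, in 176 results, and 0 of these were called in either analysis; the largest of those results was 1.11. The number of members called moved by more than 1.5 times, or to or from 0, as given below. Moves of 1.5 times or less were 2 to 3 for T0901317 in macrophages with no filter, 4 to 5 there for MePipHCA and for MePipHCA against DMHCA with the compared groups alone, and 2 to 3 for MePipHCA against DMHCA in hepatocytes with DESeq2. In macrophages, desmosterol gave 1 with DESeq2, with no filter and with the compared groups alone, and 1 to 2 with a library left out. GW3965 gave 1 with RLE factors and with the compared groups alone, and 0 to 1 with a library left out. T0901317 gave 1 to 3 and MePipHCA against DMHCA 1 to 4 with a library left out. In hepatocytes, desmosterol gave 0 to 1 with a library left out. MePipHCA gave 2 with no filter, 3 with the compared groups alone and 0 to 1 with a library left out. T0901317 gave 2 with DESeq2 and 1 with no filter, and MePipHCA against DMHCA 0 to 2 with a library left out. Of the interactions, DMHCA gave 0 to 1 with a library left out. MePipHCA gave 5 with the compared groups alone and 1 to 3 with a library left out, and T0901317 0 with RLE factors, no filter and the compared groups alone and 0 to 1 with a library left out. With a group of hepatocytes left with 1 library, that library is assumed to vary like the others. Counts of all genes called moved more than 1.5 times in these cases. In hepatocytes, desmosterol went from 48 to 85 with DESeq2, 139 with no filter and 15 to 41 with a library left out. DMHCA went from 0 to 22 with no filter, 1 with the block and 0 to 27 with a library left out. GW3965 went from 63 to 163 with no filter, 107 with the compared groups alone and 28 to 54 with a library left out. T0901317 went from 124 to 201 with DESeq2, 256 with no filter and 48 to 107 with a library left out. MePipHCA went from 286 to 490 with the compared groups alone and 114 to 207 with a library left out, and MePipHCA against DMHCA from 435 to 177 to 779. With a library left out, macrophages gave 665 to 1042 for desmosterol in place of 1097 and 898 to 1205 for DMHCA in place of 1350, and the interactions 207 to 301 in place of 346 for desmosterol, 202 to 648 in place of 377 for DMHCA, 260 to 383 in place of 426 for GW3965 and 331 to 483 in place of 498 for T0901317. The cause of these shifts was not tested.

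The labels do not say what a shared replicate number marks, and the numbers were not taken to pair the libraries, since not every same-numbered pair correlated above 0.1. Over 45 same-numbered pairs in macrophages correlations of deviations ran from -0.0963 to 0.16, and over 30 in hepatocytes from -0.0258 to 0.084. As a hint from the data the other way, 13 of 18 macrophage and 10 of 12 hepatocyte libraries correlated best with their own number. The median over same-numbered pairs was 0.0209 and 0.0116, against -0.011 and -0.0116 over other pairs. Deviations from a group mean sum to 0, so same-numbered correlations above 0 push the others below it. That contrast of medians was therefore partly fixed beforehand. With 2 libraries a group the deviations are mirror images, so the hepatocyte medians are opposite by construction. The libraries of a hepatocyte group also give the same result, so neither the 30 pairs nor the 12 libraries are independent. With the replicate number as a block MePipHCA called 5 members in macrophages in place of 4, Decr1 being added (adjusted p = 0.0499), and every other count of members stayed. By that block Pdk4 with desmosterol was -1.01 (adjusted p = 0.00286). At 2 libraries a group and low counts, the hepatocyte intervals of Acot1, Cpt1b, Ppargc1a and Bdh1 spanned 0 with every ligand, and that of Fgf21 with every ligand but MePipHCA.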
